A study of Homo sapiens with 4 samples.

Results

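The translation initiation factors and their regulators were taken as every row of the deposited results table whose gene symbol starts with EIF and a digit, leaving out symbols with a hyphen and pseudogenes. The rule found 52 of 19749 genes and left out 1 antisense RNA. Of the 52 genes, 51 had an adjusted p-value and were tested; EIF3C was not. The RNA came from U87 cells, an established human glioblastoma line grown in serum-containing medium. They were given either the vehicle DMSO (n = 2 libraries) or the small molecule YZ129, at 5 µM for 24 h (n = 2 libraries). The title of the series links the compound to the chaperone HSP90, the phosphatase calcineurin and the NFAT transcription factors. The labels do not state whether the libraries within a group are from different cultures; the p-values therefore cover the spread between libraries only, and that spread may be technical.

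Translation of an mRNA starts when the small ribosomal subunit, loaded with initiator tRNA by eIF2 and held by eIF3, eIF1 and eIF1A, is brought to the capped 5′ end by the eIF4F complex of eIF4E, eIF4G and eIF4A, and scans to the start codon. A pair of signalling switches control this step. mTORC1 phosphorylates the eIF4E-binding repressors, which then let go of eIF4E, and stress kinases phosphorylate eIF2, which blocks its recycling by the exchange factor eIF2B. Growing glioma cells rely on this machinery, and these switches act on the proteins, which RNA levels do not show.

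Values below come from the authors' deposited table, which holds 1 comparison and no value per library. Each gene has a mean level (read counts divided by library size factors, averaged over libraries) and a log2 fold change, moderated towards 0 by the authors, beside its standard error (SE). A gene was called when its adjusted p in that table was under 0.05. Which group was the numerator is not stated, and the table's name puts DMSO first. A positive value was read as higher with YZ129, because 11 of 16 cytosolic heat shock genes were called positive and 0 negative, and such genes are known to be induced when HSP90 is inhibited. Over all tested genes 5.24% were called positive and 7.64% negative. Under the opposite reading every "rose" becomes "fell" and the reverse. The lowest mean levels took 36 distinct values below 0.3, which are the pair sums of 8 steps, 1 step per library. So 8 libraries stand behind the mean level, 4 beyond those described here. The sources used here do not say whether these 4 entered the fit behind the log2 change, its SE and the p-values.

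Marker genes were read from the mean level. Because 8 libraries stand behind that level, it cannot check the identity of the 4 described here. In the authors' deposited table vimentin (VIM, mean level 298885), CD44 (134994), nestin (NES, 909) and the glial glutamate transporter SLC1A3 (1891) were well detected. Of the 8 tested astroglial and glioblastoma markers these 4 (50%) fell with YZ129, and the others did not pass. Over all tested genes 7.64% were called lower. CHI3L1, also well detected (mean level 4151), had a log2 change of 0.15 (SE 0.15, adjusted p = 0.60 in the authors' deposited table). OLIG2, at a mean level of 96.2, had a log2 change of 0.82 (SE 0.33, adjusted p = 0.079 in the authors' deposited table). GFAP (mean level 52.2) was at -0.56 (SE 0.39) and FABP7 (15.5) at -0.48 (SE 0.56) in the authors' deposited table. The glial markers SOX2 and S100B had mean levels near 0, at 0.851 and 1.12 in the authors' deposited table. Of the epithelial genes CDH1 was at 1.23, KRT19 at 0.588 and EPCAM at 18.1, and of the blood genes PTPRC was at 2.28, CD3E at 0.426 and CD14 at 11.99 in the authors' deposited table. The endothelial PECAM1 was at 24.6 and CDH5 at 0.629, and of the neuronal genes SNAP25 was at 716, SYP at 46.4 and RBFOX3 at 3.90 in the authors' deposited table. SNAP25, the only gene called among these other markers, fell with YZ129, with a log2 change of -1.43 (SE 0.17) in the authors' deposited table. SYP, at 0.66 (SE 0.37, adjusted p = 0.27 in the authors' deposited table), went the other way and did not pass.

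Only 1 tested gene of the initiation machinery was called at the RNA level. EIF4EBP1, which encodes a repressor of the cap-binding protein eIF4E, fell with YZ129, and the other 50 tested genes did not pass. Not passing does not show that a gene was unchanged. In bulk RNA, fewer cells expressing a gene and less of its RNA per cell cannot be told apart. That is 1 of 51 genes called, against 12.9% of all 14812 tested genes in the authors' deposited table (7.64% lower and 5.24% higher). Among the 7377 tested genes whose mean level was 1000 or more, where 46 of the 51 lie, 13.9% were called and 10.1% were called lower. At an unadjusted p under 0.05 the counts were 4 of the 51 genes and 24.9% of all tested genes.

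**Figure D1:**
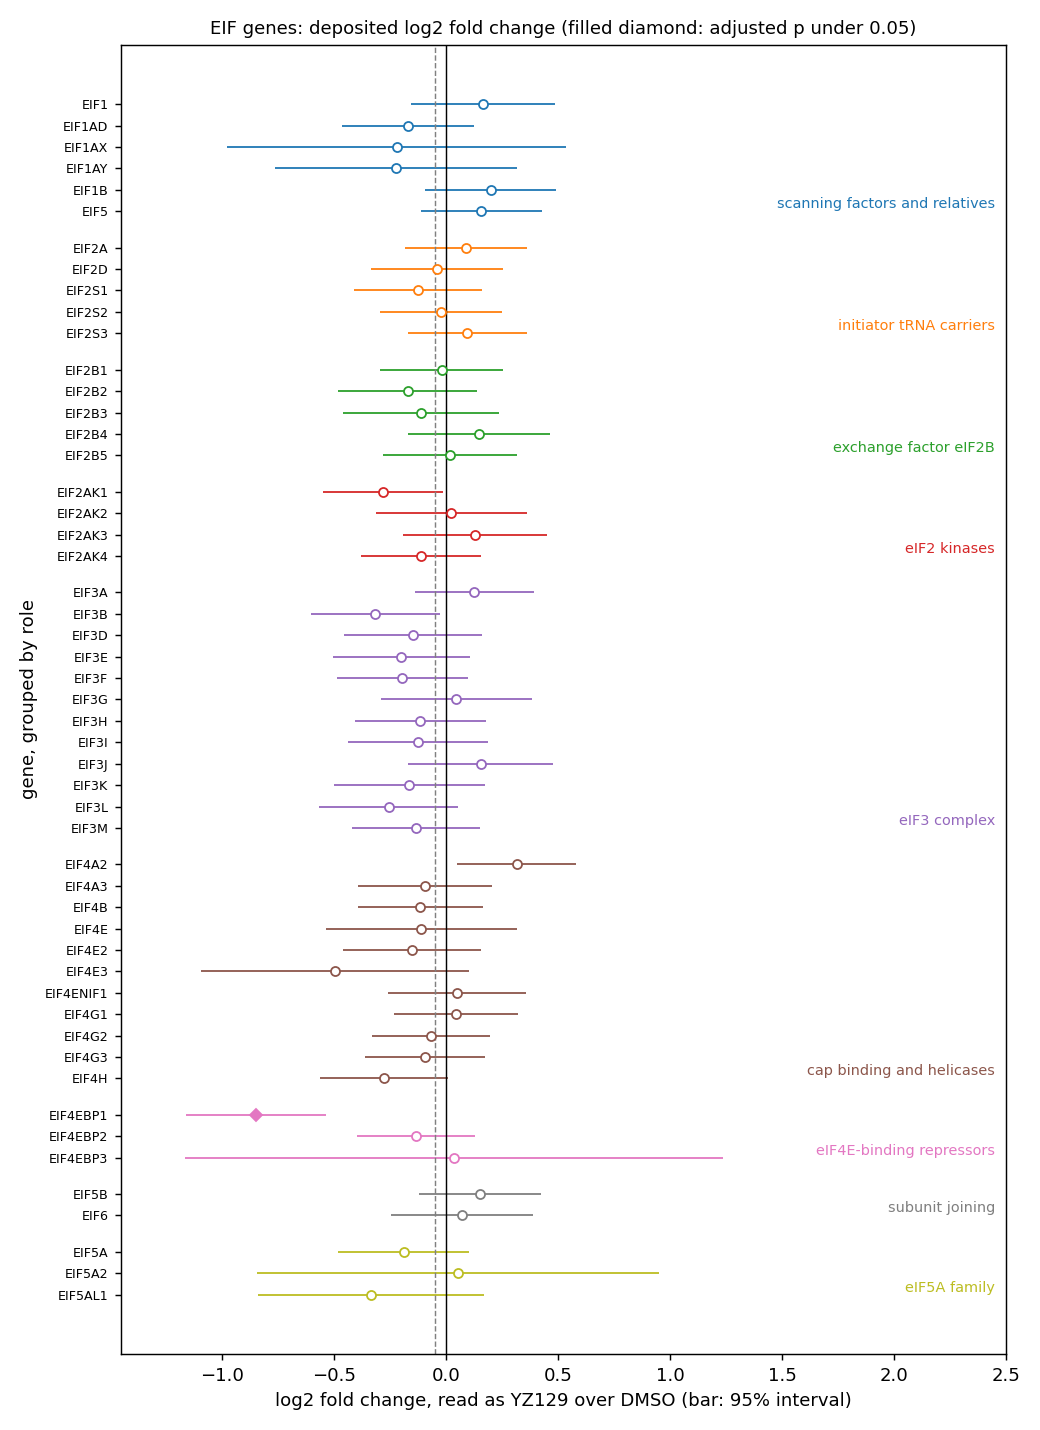
Deposited log2 fold change of the 51 tested EIF genes, read as YZ129 over DMSO (horizontal axis), one row per gene and one colour per role; bars are 95% intervals from the deposited SE, open circles did not pass and the filled diamond passed an adjusted p of 0.05. The dashed line marks the median of all tested genes (-0.05); EIF4EBP1 at -0.85 is the only filled symbol.

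The precision of the table sets how large a deposited change had to be for a call. The median SE of the 51 genes was 0.15 on the log2 scale, and the smallest score (change divided by SE) that passed in the authors' deposited table was 2.73. A gene with that SE therefore needed a deposited change of about 0.42, or 1.33-fold, to be called. A true change of that size could still be missed. For 36 of the 51 genes the whole 95% interval of the log2 change lay within 0.5 of 0, that is under 1.41-fold in either direction. The same held for 30.2% of all tested genes and for 47.3% of those at a mean level of 1000 or more. Because the deposited changes are moderated towards 0, these intervals do not bound the unmoderated change. In 41 of the 51 genes the change was under 0.2 in size on the log2 scale. The SD of the scores was 1.23 over the 46 initiation genes at a mean level of 1000 or more and 2.05 over all tested genes at that level; these genes share libraries and are not replicates, and the difference was not tested.

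The median log2 change of the 51 genes was -0.11, with 32 below 0 and 19 above, but the median moved to 0.03 when each gene was taken relative to tested genes in the same decile of mean level, with 32 above and 19 below. All tested genes had a median of -0.05, and those at a mean level of 1000 or more had -0.11. The 46 initiation genes at that level had a median of -0.10.

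**Figure D2:**
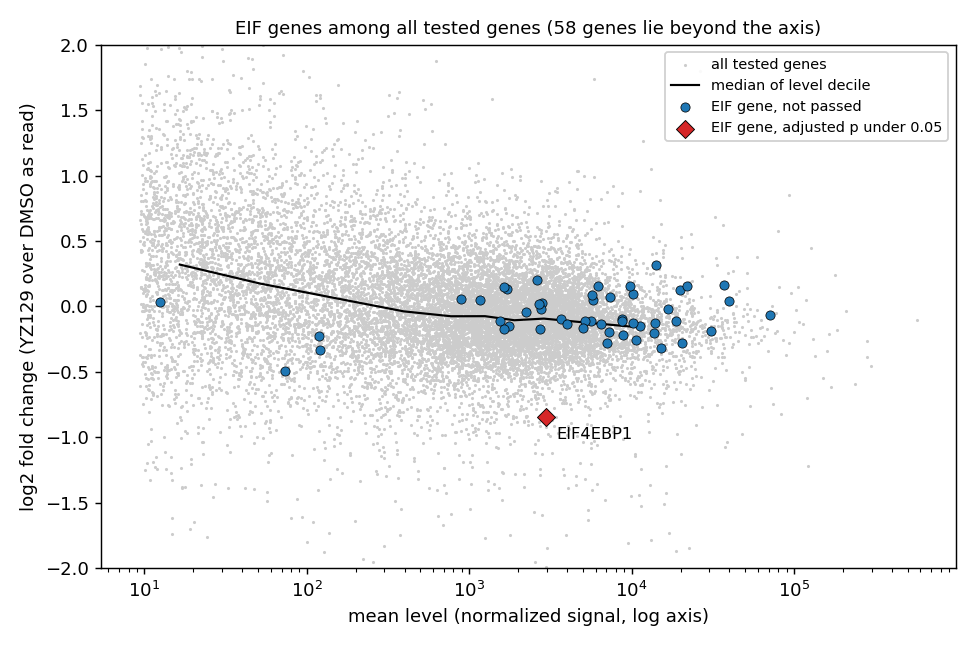
Deposited log2 fold change (vertical axis) against mean level (horizontal log axis) for all 14812 tested genes (grey) and the 51 EIF genes (coloured); the line joins the medians of the 10 level groups, and 58 genes lie beyond the axis limit of 2. EIF4EBP1 (red diamond) lies 0.75 below the median of its level group; EIF4A2 lies 0.47 above that of its own.

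Short stretches of sequence at the start sites of initiation genes are shown here because many mRNAs of the translation machinery begin with a C followed by a run of pyrimidines. This 5′ terminal oligopyrimidine (TOP) start is known to make translation of the mRNA sensitive to mTORC1. RefSeq promoters (GRCh38.p14) were found for 44 of the 52 genes, 43 of them tested. EIF4EBP1 is not among the 43, so no called gene was searched and calls are not counted by motif. A start with C and then at least 4 bases that are C or T was present in 9 of the 43 (20.9%), in 7.32% of the 10435 tested genes with a promoter sequence, in 5.14% of all 27305 genes with one, and in 49 of 68 cytosolic ribosomal protein genes (72.1%). The windows below run 5′ to 3′ from 10 bases before the annotated start to 15 bases after it, on the gene's strand, and capitals mark the pyrimidine run that begins at the first transcribed base.
EIF3D (chr22:36529152-36529176, minus strand): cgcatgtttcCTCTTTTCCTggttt
EIF3F (chr11:7987327-7987351, plus strand): cttccgcctcCTTCTTTCTCgacaa
EIF3K (chr19:38619178-38619202, plus strand): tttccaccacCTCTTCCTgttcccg
EIF3M (chr11:32583821-32583845, plus strand): gcccagttccCTTTTCCggtcggcg
EIF2S3 (chrX:24054946-24054970, plus strand): gatttccttcCTCTTTTggcaacat
EIF4A2 (chr3:186783567-186783591, plus strand): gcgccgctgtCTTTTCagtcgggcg
EIF4B (chr12:53006446-53006470, plus strand): tcatccgggtCTTTTgcgttctctt

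EIF2A and EIF2D were the other two genes with such a start. Of the 9 genes, 3 lay above 0 and 6 below, and their median log2 change was -0.11, beside -0.09 for the 34 tested genes without the run. A match describes the annotated start only. The 4 eIF3 subunits among them had log2 changes of -0.15 ± 0.16 (EIF3D), -0.19 ± 0.15 (EIF3F), -0.16 ± 0.17 (EIF3K) and -0.13 ± 0.15 (EIF3M) in the authors' deposited table (± SE here and below).

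The E-box CACGTG, a palindrome bound by MYC and related factors, was found in the 250 bases before a start in 12 of the 43 genes (27.9%), against 11.05% of tested genes with a promoter and 7.73% of all. EIF4E, whose promoter is known for its E-boxes, is shown as one of 3 genes of the 43 that carry at least 2 of them, the others being EIF4G1 and EIF5A2; capitals mark the E-box in each line.
EIF4E, first E-box, 225 bases before the start (chr4:98929343-98929368, minus strand): acccatcggcCACGTGaccagtcctt
EIF4E, second E-box, 72 bases before the start (chr4:98929190-98929215, minus strand): acatatccgtCACGTGgccagaagct

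The 12 genes with an E-box had a median log2 change of -0.10, beside -0.09 for the 31 without one. The shorter ACGTG, which hypoxia-inducible factors bind and which every E-box of this kind contains, was found on either strand in 19 of the 43 genes (44.2%), against 28.7% of tested genes with a promoter. TGATGNAA, an ATF4-type element searched on both strands, was found in 1 of the 43, EIF4E3, against 2.78%.

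Among the eIF4E-binding repressors, EIF4EBP1 fell 1.80-fold, a log2 change of -0.85 ± 0.16 at a mean level of 2969 (95% interval -1.16 to -0.53, adjusted p = 5.84e-06 in the authors' deposited table). Its protein sequesters eIF4E from eIF4G until mTORC1 phosphorylates it. Relative to tested genes of its level it stood at -0.75. Its paralog EIF4EBP2, which does the same and had a mean level of 4010, changed by -0.13 ± 0.13 in the authors' deposited table (95% interval -0.40 to 0.13, adjusted p = 0.59), so the intervals of these paralogs did not overlap. The difference itself was not tested. EIF4EBP3 had a mean level of only 12.4 and a change of 0.04 ± 0.61 in the authors' deposited table, so its interval, -1.16 to 1.24, holds changes as large as that of EIF4EBP1.

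None of the 3 cap-binding proteins passed. EIF4E, the main one, stood at -0.11 ± 0.22 and EIF4E2, a homolog known for repressing selected mRNAs, at -0.15 ± 0.16 in the authors' deposited table. EIF4E3, the third homolog, had the most negative value of the genes that did not pass, -0.49 ± 0.31, at a mean level of 73.1 (95% interval -1.09 to 0.10, adjusted p = 0.32 in the authors' deposited table), so a change as large as that of EIF4EBP1 lies inside its interval. EIF4ENIF1, which carries eIF4E into the nucleus and to sites of mRNA storage, was at 0.05 ± 0.16 in the authors' deposited table. The EIF4E interval, -0.53 to 0.32, is wide for its mean level of 5606: its SE was above that of 94.3% of tested genes of its level.

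The scaffolds of eIF4F, which bridge the cap and the ribosome, stayed close to 0. EIF4G1 (mean level 39773) changed by 0.04 ± 0.14, EIF4G3 (8751) by -0.09 ± 0.14 and EIF4G2, a relative that lacks the eIF4E-binding part and supports cap-independent initiation (71482), by -0.07 ± 0.13 in the authors' deposited table. All 3 intervals lay within 0.5 of 0.

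The helicase EIF4A2, which unwinds the 5′ leader, was the gene nearest to the threshold among those that did not pass, and the highest of all 51. It stood at 0.32 ± 0.14 at a mean level of 14063 (adjusted p = 0.11 in the authors' deposited table). Relative to tested genes in its decile of mean level the value was 0.47, and the same Wald test centred in that way gave an adjusted p of 0.0078, which would be a call; centred on all tested genes it gave 0.055. EIF4A1, its near paralog and the other cytosolic eIF4A, was not analysed here. EIF4A3, a relative that works in the exon junction complex and not in initiation, was at -0.09 ± 0.15 in the authors' deposited table. The cofactors that stimulate the helicase were at -0.11 ± 0.14 (EIF4B) and -0.28 ± 0.15 (EIF4H, adjusted p = 0.22) in the authors' deposited table.

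The subunits of eIF3, the large scaffold that binds the small ribosomal subunit, gave 0 calls among 12 tested in the authors' deposited table, which has the columns of DESeq2, and 1 at an unadjusted p under 0.05. The shares of all tested genes were 12.9% and 24.9%. The median log2 change of the 12 subunits was -0.14, with 9 of 12 below 0, but 7 of 12 lay above the median of tested genes of their level. EIF3B was the lowest at -0.31 ± 0.15 (adjusted p = 0.15 in the authors' deposited table). EIF3A was at 0.13 ± 0.14, and EIF3J, a loosely bound subunit, was the highest at 0.16 ± 0.17 in the authors' deposited table. EIF3G and EIF3I, which sit with EIF3B, were at 0.05 ± 0.17 and -0.13 ± 0.16 in the authors' deposited table. EIF3E (-0.20 ± 0.16), EIF3H (-0.11 ± 0.15) and EIF3L (-0.25 ± 0.16) complete the complex together with the 4 subunits shown above with their start sites, as given in the authors' deposited table. EIF3C had a mean level of 2.81 and no adjusted p in the authors' deposited table. It has a near-identical copy, EIF3CL, and the sources used here do not say how reads shared by the copies were counted, so its level cannot be read as its expression.

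The subunits of eIF2, which carries the initiator tRNA, lay close to 0. EIF2S1, the alpha subunit that the stress kinases phosphorylate, changed by -0.13 ± 0.15, EIF2S2 by -0.02 ± 0.14 and the GTP-binding EIF2S3 by 0.10 ± 0.14 in the authors' deposited table. The alternative initiator tRNA factors EIF2A (0.09 ± 0.14) and EIF2D (-0.04 ± 0.15) were no further from 0 in the authors' deposited table. All 5 intervals lay within 0.5 of 0.

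The same was true of all 5 subunits of eIF2B, the exchange factor that recharges eIF2 with GTP. Their changes ran from -0.17 ± 0.16 (EIF2B2) to 0.15 ± 0.16 (EIF2B4) in the authors' deposited table. EIF2B5, the catalytic subunit, was at 0.02 ± 0.15, EIF2B1, part of the regulatory core, at -0.02 ± 0.14 and EIF2B3 at -0.11 ± 0.18 in the authors' deposited table.

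None of the 4 kinases of eIF2 passed in the authors' deposited table with DESeq2 columns, and 1 had an unadjusted p under 0.05. The shares of all tested genes were 12.9% and 24.9%. The heme-regulated kinase EIF2AK1 was closest, at -0.28 ± 0.14 (adjusted p = 0.17 in the authors' deposited table). The double-stranded RNA sensor EIF2AK2 (PKR) stood at 0.02 ± 0.17, the endoplasmic reticulum stress kinase EIF2AK3 (PERK) at 0.13 ± 0.16 and the amino acid sensor EIF2AK4 (GCN2) at -0.11 ± 0.14 in the authors' deposited table.

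Of 11 genes without an EIF symbol that act on these kinases, on eIF2 phosphorylation or in its response, 2 rose and 0 fell, that is 18.2% called against 12.9% of all tested genes. PPP1R15A, the inducible subunit that directs a phosphatase to eIF2, rose 1.71-fold (0.77 ± 0.16, mean level 8294, adjusted p = 2.64e-05 in the authors' deposited table). DDIT3 (CHOP), a transcription factor induced when eIF2 is phosphorylated, rose 1.86-fold (0.89 ± 0.17, adjusted p = 7.57e-06 in the authors' deposited table). The constitutive counterpart PPP1R15B was at -0.00 ± 0.17 and ATF4, which is controlled mainly through its translation, at 0.25 ± 0.16 in the authors' deposited table. Nearest to the threshold among the genes that did not pass was the catalytic phosphatase subunit PPP1CA. It stood at -0.38 ± 0.15 (adjusted p = 0.074 in the authors' deposited table). Over the 11 genes the median was -0.03, with 7 below 0 and 4 above.

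The factors of scanning and start codon choice gave 0 calls among 6 genes in the authors' deposited table, which has DESeq2 columns, and 0 at an unadjusted p under 0.05. The shares of all tested genes were 12.9% and 24.9%. EIF1, which guards start codon fidelity, was at 0.16 ± 0.16, its paralog EIF1B at 0.20 ± 0.15 and the GTPase activator EIF5 at 0.16 ± 0.14 in the authors' deposited table. EIF1AX, which works with EIF1, had a wide interval, with a change of -0.22 ± 0.39 at a mean level of 8819; its SE exceeded that of 97.5% of tested genes of its level in the authors' deposited table. Its near-identical relative EIF1AY, which may share its reads (-0.22 ± 0.28, mean level 119), and EIF1AD, which shares its domain (-0.17 ± 0.15), missed the threshold in the authors' deposited table. RPS4Y1, like EIF1AY a gene of the Y chromosome, had a mean level of only 0.258 in the authors' deposited table. The source of the EIF1AY reads was not tested.

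The late factors did not pass either. EIF5B, the GTPase that joins the ribosomal subunits, was at 0.15 ± 0.14 and EIF6, which keeps the large subunit from joining early, at 0.07 ± 0.16 in the authors' deposited table. EIF5A, a hypusine-bearing factor that now counts mainly as an elongation and termination factor, was at -0.19 ± 0.15 in the authors' deposited table. Its paralog EIF5A2 (0.05 ± 0.46, mean level 894) had an SE above that of 98.5% of tested genes of its level, and EIF5AL1, a near-identical copy of EIF5A that may share its reads, was at -0.33 ± 0.26 in the authors' deposited table.

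Other genes of translation were set beside the EIF genes. Cytosolic ribosomal protein genes gave 0 calls among 83 in the authors' deposited table, which has DESeq2 columns. Among all tested genes 12.9% were called. At an unadjusted p under 0.05 the count was 0 of 83, against 24.9% of all tested genes. The log2 changes of these 83 genes ran from -0.29 to 0.17 with a median of -0.12. The list was taken by symbol and includes paralogs, which set both ends, RPL22L1 the lowest and RPL7L1 the highest. Of the 83 genes 76 lay below 0, although 53 of 83 were above the median of tested genes of their level. Of 17 tested partners of initiation without an EIF symbol, such as poly(A)-binding proteins and recycling factors, 1 (5.88%) fell and 0 rose (median -0.14). Over all tested genes 7.64% were called lower and 5.24% higher. The partner that fell was CYFIP1, an eIF4E-binding protein that represses translation with FMRP, at -0.43 ± 0.14 (adjusted p = 0.019 in the authors' deposited table). That call is lost at an adjusted p under 0.01 and with centring by level. Both mitochondrial initiation factors, MTIF2 (0.18 ± 0.14) and MTIF3 (0.02 ± 0.17), missed the threshold in the authors' deposited table.

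Of 16 genes of elongation, termination and hypusination 2 fell and 0 rose, with a median of -0.11; these 12.5% are near the 12.9% called among all tested genes. EEF2K, the kinase that inhibits the elongation factor eEF2, fell 1.56-fold (-0.64 ± 0.15, adjusted p = 0.00062 in the authors' deposited table). EEFSEC, which delivers the selenocysteine tRNA, fell 1.96-fold (-0.97 ± 0.22, mean level 287, adjusted p = 0.00019 in the authors' deposited table). The abundant factors EEF1A1 (-0.26 ± 0.14) and EEF2 (-0.12 ± 0.15) missed the threshold in the authors' deposited table, as did the hypusine enzymes DHPS (-0.08 ± 0.17) and DOHH (0.34 ± 0.16).

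Of 14 genes of the mTORC1 arm, which holds regulators, subunits and the parallel S6 kinase output, 1 rose and 1 fell, and these 14.3% are near the 12.9% of all tested genes. DDIT4, a stress-induced inhibitor of mTORC1, fell 5.39-fold (-2.43 ± 0.14 in the authors' deposited table). TSC1, a subunit of the complex that restrains mTORC1, rose 1.53-fold (0.62 ± 0.14, adjusted p = 0.00044 in the authors' deposited table). The kinase MTOR itself (0.08 ± 0.14), its partner RPTOR (-0.23 ± 0.16) and the substrate kinase RPS6KB1 (-0.15 ± 0.19) missed the threshold in the authors' deposited table. RNA levels do not report mTORC1 activity, which was not measured.

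**Figure D3:**
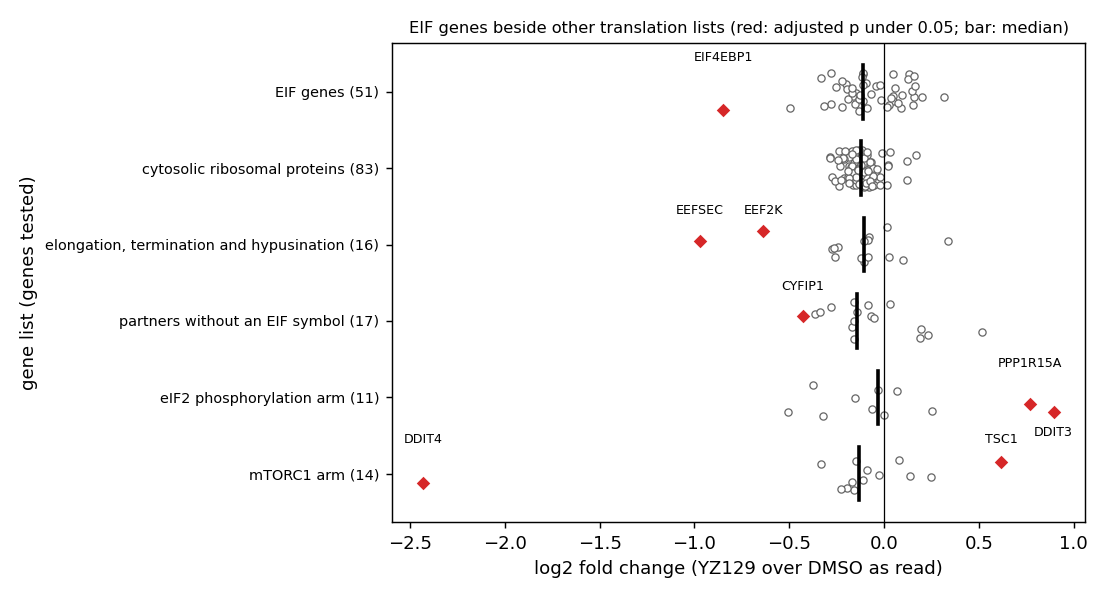
Deposited log2 fold change (horizontal axis) of each tested gene in the EIF set and in 5 other translation lists (rows, with the number of genes tested); red diamonds passed an adjusted p of 0.05, open circles did not, and vertical bars are medians. All 6 medians lie between -0.14 and -0.03, and the called genes are labelled.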

How the data were processed

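RNA of U87 cells was poly(A)-selected and sequenced, per the labels' protocols. Per the submitters' processing notes, Cuffdiff, Cufflinks 2.2.1, TopHat2 2.0.12 and the build hg19 were used, in roles not given. The sources used here give neither the authors' read counter, tool version nor annotation. The authors deposited a table with DESeq2 columns, per the file headers: a mean normalized signal, a log2 fold change with its SE, a Wald score, a p-value and a Benjamini-Hochberg adjusted p-value. The score, p and adjustment were recomputed and matched. The 4937 genes without an adjusted p (mean level 9.43 or less) were not tested. Depth per library was not analysed here, so no counting interval is given.

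Samples were grouped by title. The authors' adjusted p was the call; no test per library, set test or list-only adjustment was made. Intervals are the deposited, moderated log2 change ± 1.96 SE. Level groups are the 10 deciles of mean level. The members and gene lists were chosen with earlier results of these data known; every member is named, with every called gene of a list that had 5 or fewer, and other list genes named were picked after their values were seen. Alternatives changed the threshold, size, filter, adjustment, centring and members. Centred Wald tests were tested on simulated data. Python 3.11.15, pandas 2.3.3, numpy 2.4.6, scipy 1.17.1 and matplotlib 3.10.9 were used.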

Additional observations from a re-analysis of the deposited data

How the results depend on the processing

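EIF4EBP1 stayed lower and past the threshold in 8 of 9 alternatives, with adjusted p from 4.87e-06 (only genes at a mean level of 100 or more) to 0.0017 (Holm adjustment). These are not separate tests. The cuts on adjusted p and on size, and leaving out members with a near-identical copy, reuse the deposited values. Their outcome for EIF4EBP1 was therefore fixed in advance. The changes of filter and the Holm adjustment only adjusted the same deposited p-value again. Only the centrings changed the value tested, and they kept the deposited SE. Requiring a log2 change of at least 1 left 0 initiation genes called. Centring within level deciles gave 2, since EIF4A2 passed. The other 49 tested initiation genes stayed on their side of the threshold in every alternative run on them. The median of the initiation genes was -0.11 as deposited and ranged from -0.11 to 0.03. The CYFIP1 call among the partners was lost at an adjusted p under 0.01 (0 called) and with centring within level deciles (0 called); the cause was not tested. Of all called genes 40.7% were higher as deposited, 51.9% after centring on all tested genes and 53.4% after centring within level deciles. No paired analysis was possible because the table holds no value per library, and for the same reason no replicate could be left out. Low levels limit EIF4EBP3, EIF4E3, EIF1AY and EIF5AL1.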

Other observations

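In 3 initiation genes the SE was far above that of genes at their level, although their mean levels were not low: 0.39 for EIF1AX, 0.46 for EIF5A2 and 0.22 for EIF4E, where the medians of their level groups were 0.15, 0.17 and 0.15 in the authors' deposited table. They were chosen after their values were seen. The catalytic phosphatase subunit PPP1CB, also picked afterwards, had an SE of 0.40 at a mean level of 13520 in the authors' deposited table. With no value per library, the source of these large SEs was not tested.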
